A study of Mus musculus with 8 samples.

Results

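A set of 7 named neuronal and nuclear long non-coding RNAs (lncRNAs) were examined in the brain cortex of mice fed a normal or a high fat diet: Miat, Meg3, Rian, Mirg, Malat1, Neat1 and Snhg11. They were chosen by gene name, with earlier results of these data known. Of the 7, 6 had a row among the 13996 genes of the expression values, while Malat1 was not analysed here. All mice were male C57BL/6, received at 8 weeks of age. For 8 weeks, 4 of them (Normal 1 to 4) ate a conventional diet and 4 (HFD 1 to 4) a diet with 60% fat by weight, so cortexes were taken at 16 weeks. RNA of each cortex was depleted of ribosomal RNA and sequenced as 1 library per mouse. Values are FPKM (fragment counts scaled by transcript length and by the mapped reads of the library). Levels of different genes can be set side by side only as far as the transcript lengths used in this scaling hold.

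Most of these lncRNAs act as RNA in the nucleus. Miat (also called Gomafu) is found in nuclear spots of neurons and binds splicing factors through short repeats. Meg3, Rian and Mirg lie in this order on the same strand of the imprinted Dlk1-Dio3 domain and are expressed from the maternal chromosome. Rian carries many small nucleolar RNAs (snoRNAs) and Mirg carries a large cluster of microRNAs. Neat1 is the scaffold on which paraspeckles, RNA and protein bodies of the nucleus, are built. Snhg11 is a snoRNA host gene with neuronal expression.

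On GRCm38 in the GENCODE M21 annotation, Miat lies on the minus strand of chromosome 5 (112213228 to 112229395). Its RNA is shown here because the repeats for which it is known occur in it close together. The stretch below is chr5:112217304-112217465 on the minus strand, in exon 7 of the 7 exons of the longest transcript, and capitals mark the TACTAAC repeats.
Miat: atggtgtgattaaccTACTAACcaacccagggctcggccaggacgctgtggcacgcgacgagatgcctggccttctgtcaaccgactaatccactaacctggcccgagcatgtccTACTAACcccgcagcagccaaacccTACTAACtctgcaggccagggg
This transcript of 9163 bases holds 6 such repeats, and 3 of them fall in the stretch. The letters TACTAAC were searched on the RNA strand only, and 3.77% of 134529 annotated transcripts of at least 200 bases hold them at least 1 time. At least 3 within 200 bases were found in 5 transcripts of 4 genes, of which 2 are Miat transcripts. Among the other lncRNAs, 1 repeat was found in a Neat1 transcript and 1 in a Rian transcript, and none in those of Meg3, Mirg and Snhg11.

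Meg3 starts at the upstream end of its cluster on chromosome 12. Its RefSeq promoter window (GRCm38.p6, chr12:109540746-109541045, plus strand, 250 bases before to 50 after the start) is shown because Meg3, Rian and Mirg lie downstream of it on 1 strand. Capitals mark TGACGTCA, the palindromic cyclic AMP response element, which starts 57 bases before the gene start.
Meg3: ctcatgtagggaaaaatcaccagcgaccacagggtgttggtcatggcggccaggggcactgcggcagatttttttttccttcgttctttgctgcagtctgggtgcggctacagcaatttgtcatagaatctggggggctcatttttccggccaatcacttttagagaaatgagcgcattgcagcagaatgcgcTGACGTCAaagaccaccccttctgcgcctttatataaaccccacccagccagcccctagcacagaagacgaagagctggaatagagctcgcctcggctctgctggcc
The letters TGACGTCA, which read the same on both strands, occur in 588 of 32851 promoter windows of the same length, or 1.79%. They were chosen after the window had been read. Windows were matched for 5 of the 6 lncRNAs, without Neat1, and of 6 windows in all this is the one with the letters. The windows of Mirg (chr12:109734731-109735030) and Miat (chr5:112228899-112229198) lie inside the GENCODE spans of these genes and do not cover their GENCODE starts. The sequence at those starts was not searched. A match of letters describes the window and is not a measured binding site.

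The microRNAs inside the Dlk1-Dio3 lncRNAs were not measured by these values, but they show what the 3 transcripts carry. RefSeq places 3 mature microRNAs within Meg3, 6 within Rian and 26 within Mirg, of 1738 mature mouse microRNAs in all. Of the 26 in Mirg, 8 lie in exons of annotated transcripts, and the 6 in Rian all lie in introns. Those printed are 1 from Meg3 (miR-770-5p), 1 from Rian (miR-370-3p), 4 from exons of Mirg and the 2 of Mirg that share a seed. Capitals mark the seed, bases 2 to 8.
miR-770-5p: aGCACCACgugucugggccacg
miR-370-3p: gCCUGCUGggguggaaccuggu
miR-134-5p: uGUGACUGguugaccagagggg
miR-485-3p: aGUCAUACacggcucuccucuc
miR-377-3p: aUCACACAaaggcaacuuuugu
miR-410-3p: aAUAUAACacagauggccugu
miR-453: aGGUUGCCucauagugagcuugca
miR-496a-5p: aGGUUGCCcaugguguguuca
The last 2, miR-453 and miR-496a-5p, have the same seed, and no other seed occurs more than 1 time among these microRNAs.

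The tissue label was checked against marker genes before the results. Cortical excitatory markers were present in all mice, with summed levels of 287.2 to 433.1 FPKM on the normal diet and 477 to 566 on the high fat diet, and 6 of 8 tested higher after high fat diet. Markers of the striatum, which lies below the cortex, were all lower after high fat diet (8 of 8 tested), with sums of 234.9 to 432.7 against 77.5 to 87.4 FPKM and Drd1 not analysed here. Cerebellum markers summed to 27.2, 282.8, 383.6 and 88.7 FPKM in Normal 1 to 4 and to 21.3 to 25.1 on the high fat diet, and 4 of 7 tested were lower. The granule cell gene Gabra6 of the cerebellum list was listed at 0 in HFD 1 and at 0.1 to 0.2 FPKM in the other high fat mice, against 1.7 to 61.7 on the normal diet. Oligodendrocyte markers were lower in 8 of 8 tested, with sums of 2103.7 to 3462.7 against 1451.3 to 2019.1 FPKM. Thalamus markers summed to 19.6 to 74.4 against 16.2 to 19.8 FPKM (1 of 4 lower) and choroid plexus markers to 341.4 to 723.6 against 20.7 to 938.3 (2 of 4 lower). Blood markers were lower in 5 of 5, with sums of 239.2 to 479.7 against 199.1 to 247.4 FPKM. General neuron markers (1774.1 to 2115.5 against 2058.5 to 2316.9 FPKM) passed the test in 0 of 6 genes by limma, with 1 at an unadjusted p below 0.05, and microglia markers (101.5 to 122.3 against 107.2 to 118.2) in 0 of 5, also with 1. Astrocyte markers were lower in 2 of 7 (792.4 to 1007.7 against 754.2 to 837.5 FPKM). Interneuron markers gave 1 higher and 4 lower of 7, endothelium markers 1 and 2 of 5, and oligodendrocyte precursor markers 1 and 1 of 3. By the same test 17.7% of all genes were higher and 15.3% lower. The diets therefore differed in markers of brain regions and of cell types, and the diet and the tissue composition of the samples cannot be told apart for any result that follows. In RNA of whole tissue, fewer cells of a type and less RNA per cell cannot be told apart either.

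Of the 6 lncRNAs, 4 rose after high fat diet and 0 fell (0 also at an unadjusted p below 0.05): Miat, Snhg11, Meg3 and Rian. The comparison was made on log2(FPKM + 0.1) with limma, with Benjamini-Hochberg adjustment over 13982 genes and a threshold of 0.05. By the same test 17.7% of all genes were higher and 15.3% lower. Among 633 lncRNA rows 20.1% were higher, and among the 67 with a mean of at least 10 FPKM, the range in which these lncRNAs lie, 34.3% were higher. The 6 were chosen with earlier results of these data known, so 4 of 6 is not an unbiased excess over these shares. Without Normal 2 and Normal 3, the mice with most cerebellar marker RNA, 5 of 6 were called higher, Neat1 being the fifth. With the cerebellum marker level of each mouse as a covariate 2 of 6 were, Meg3 and Snhg11. With the striatum marker level as a covariate 0 of 6 passed by limma, and 0 did at an unadjusted p below 0.05. Of all genes 0 passed in that fit and 291 had an unadjusted p below 0.05, and the striatum sums of the diets do not overlap.

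The order of the mean levels was the same on both diets, with Rian highest, followed by Meg3, Snhg11, Miat, Mirg and Neat1. Neighbours in this order did not overlap in any mouse of the same diet. Over the 8 mice, Rian had a mean of 635 FPKM and Meg3 of 354, the fourth and the fifth highest of the lncRNA rows. Neat1 was the lowest with 17.4 FPKM. The plot of levels by mouse shows the separation between diets for the 4 that rose and the overlap for Mirg and Neat1.

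**Figure D1:**
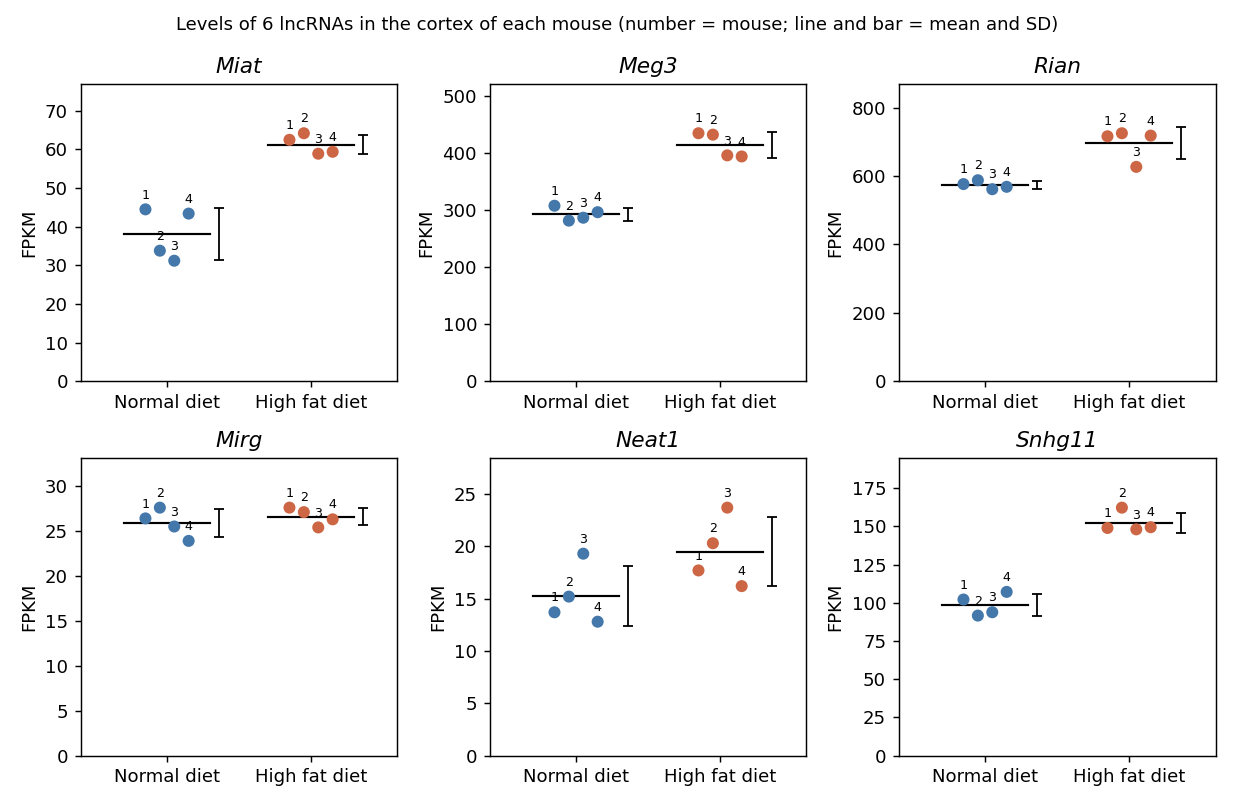
FPKM (linear axis from 0) of the 6 lncRNAs in each mouse, numbered 1 to 4 per diet, with the mean as a line and the SD as a bar beside it (n = 4). Miat, Meg3, Rian and Snhg11 are higher in each of the 4 high fat diet mice than in each of the 4 normal diet mice, while Mirg and Neat1 overlap.

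Miat, the neuronal lncRNA with the TACTAAC repeats, had the largest fold change of the 6. It was measured at 44.5, 33.8, 31.2 and 43.4 FPKM in Normal 1 to 4 and at 62.5, 64.2, 58.9 and 59.4 FPKM in HFD 1 to 4. The lowest high fat mouse lay above the highest normal mouse, and the normal mice fell into a higher pair (1 and 4) and a lower pair (2 and 3). The spread was wider on the normal diet, with a coefficient of variation of 17.6% against 4.13%. The log2 fold change was 0.69 (95% confidence interval 0.45 to 0.94, limma adjusted p = 0.00215), or 1.62-fold, the 55th largest among the lncRNA rows. Normal 2 and Normal 3 also had the highest cerebellum marker sums and the lowest cortical excitatory sums, 306.6 and 287.2 FPKM against 405.8 and 433.1 in Normal 1 and Normal 4. Without both mice the log2 fold change of Miat was 0.48 (limma adjusted p = 0.00278). With the cerebellum covariate it was 0.27 (limma adjusted p = 0.145).

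Snhg11, listed as protein-coding in the table although it is known as a snoRNA host gene, was the next in size. Its levels were 102.1, 91.6, 93.8 and 107.1 FPKM in Normal 1 to 4 and 148.9, 162.2, 148 and 149.4 FPKM in HFD 1 to 4. The diets were far apart, Normal 2 and Normal 3 were the lowest as for Miat, and HFD 2 stood above the other high fat mice. The log2 fold change was 0.63 (SE 0.059, limma adjusted p = 0.000367). It stayed past the threshold without Normal 2 and Normal 3 (0.54) and with the cerebellum covariate (0.49, limma adjusted p = 0.03).

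The snoRNA gene Gm25129 lies inside Snhg11 (GENCODE, GRCm38, chr2:158379534-158379666, plus strand) and had a row of its own. Its sequence of 133 bases is shown because it is the hosted RNA that can be set beside its host.
Gm25129: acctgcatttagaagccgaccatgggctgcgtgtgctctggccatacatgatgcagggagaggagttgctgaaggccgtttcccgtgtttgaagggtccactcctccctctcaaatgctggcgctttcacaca
It was measured at 535.5, 516.6, 402.6 and 310.1 FPKM in Normal 1 to 4 and at 569.2, 260.2, 436.3 and 492.8 in HFD 1 to 4. The diets overlapped throughout, with a log2 fold change of -0.03 (limma adjusted p = 0.938). HFD 2 had the highest Snhg11 level and the lowest Gm25129 level of its diet. A gene this short has few positions for a read, and its reads may be shared with like snoRNA copies, so the row is uncertain.

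Meg3, the maternally expressed lncRNA at the head of the cluster (chromosome 12, 109541001 to 109571726), rose to 1.41-fold. It was measured at 307.7, 281.6, 286.7 and 296.4 FPKM in Normal 1 to 4 and at 434.8, 432.3, 396 and 394.1 FPKM in HFD 1 to 4. No mouse of one diet reached the range of the other, Normal 2 and Normal 3 were again the lowest, and HFD 1 and HFD 2 were higher than HFD 3 and HFD 4. The log2 fold change was 0.50 (SE 0.055, limma adjusted p = 0.000713). Without Normal 2 and Normal 3 it was 0.45, and with the cerebellum covariate 0.40 (limma adjusted p = 0.0468).

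Rian, the snoRNA-rich lncRNA that follows (109603940 to 109661716), was the most abundant of the 6 and rose less. Its levels were 576.4, 587.6, 561.4 and 568.4 FPKM in Normal 1 to 4 and 716.1, 725, 626.7 and 718.1 FPKM in HFD 1 to 4. HFD 3 lay well below the other high fat mice but above each normal mouse. The normal mice were close together, with a coefficient of variation of 1.96%. The log2 fold change was 0.28 (SE 0.061, limma adjusted p = 0.00861), or 1.21-fold. With the cerebellum covariate the estimate kept its size (0.28) with a larger SE of 0.11 and an adjusted p of 0.169 in limma.

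Mirg, the microRNA-bearing lncRNA at the far end (109729764 to 109749460), gave no call. Normal 1 to 4 had 26.4, 27.6, 25.5 and 23.9 FPKM, and HFD 1 to 4 had 27.6, 27.1, 25.4 and 26.3. The ranges overlapped almost fully. The log2 fold change was 0.04 with a 95% confidence interval of -0.08 to 0.16 (limma adjusted p = 0.572), so its upper bound lies below the estimates of Meg3 and Rian. With the striatum covariate it was 0.47 (SE 0.26, not called by limma), beside 0.56 for Meg3 and 0.35 for Rian in that fit.

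Neat1, the paraspeckle scaffold on chromosome 19 (5824708 to 5845478, minus strand), did not pass the test. Normal 1 to 4 had 13.7, 15.2, 19.3 and 12.8 FPKM, and HFD 1 to 4 had 17.7, 20.3, 23.7 and 16.2. Mouse 3 was the highest on both diets, and Normal 3 lay above HFD 1 and HFD 4. The log2 fold change was 0.35 (95% confidence interval 0.03 to 0.68, limma adjusted p = 0.0861), and both coefficients of variation were wide, 18.9% and 16.9%. Without Normal 3 it was 0.47 (limma adjusted p = 0.0243), and without Normal 2 and Normal 3 it was 0.54 (limma adjusted p = 0.0307). With the cerebellum covariate it was 0.67 (limma adjusted p = 0.123). The annotation has a transcript of 20771 bases and shorter ones, 1 of them of 3004 bases, and the row does not separate them.

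Of the 6, 3 were both called and changed by more than 40%, Miat, Snhg11 and Meg3. This holds for 6.39% of all genes and 13.7% of the lncRNA rows. Meg3 lies near this limit: its log2 fold change was 0.48, 0.47 and 0.48 without Normal 2, HFD 1 and HFD 2, which is below 1.4-fold. Without overlap between the diets and higher on the high fat diet were 4 of the 6, against 17.2% of all genes and 17.5% of the lncRNA rows. The median log2 fold change was 0.43 for the 6, 0.17 for the lncRNA rows and 0.00311 for all genes. Since the 6 were chosen with earlier results known, these shares and medians give no unbiased comparison.

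**Figure D2:**
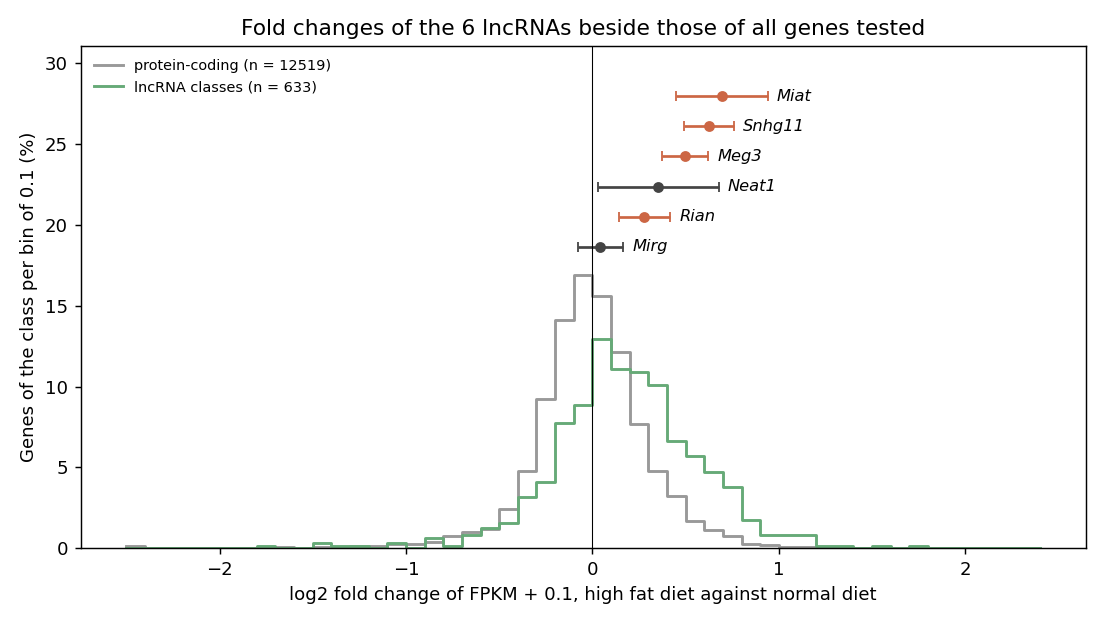
Points give the log2 fold change of each of the 6 lncRNAs with its 95% confidence interval (red where called higher, dark grey where not), above the distribution of fold changes of 12519 protein-coding genes and 633 lncRNA rows in bins of 0.1 (values beyond the ends are placed in the end bins). The 6 points lie to the right of 0, and the lncRNA distribution is shifted to the right of the protein-coding one.

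Median log2 fold changes lay above 0 in several classes of RNA, while the share called higher differed between classes. Sense intronic RNAs had a median log2 fold change of 0.37 over 60 genes, with 19 called higher and 0 lower by limma, and 0 lower at an unadjusted p below 0.05. The class TEC (transcribed regions without an assigned type) had 0.49 over 480 genes, with 245 called higher and 5 lower. LincRNAs had 0.20 over 260 genes, and protein-coding genes had -0.01. Processed transcripts, the class of Rian, had 0.13 over 132 genes, with 17.4% called higher. Antisense RNAs had 0.11 with 14.1% called higher, and bidirectional promoter lncRNAs 0.18 with 7.41%, beside 17.7% of all genes. SnoRNAs had -0.24 over 55 genes, with 1 called higher and 9 lower. The part that a class-wide difference has in the values of the 6 lncRNAs was not tested. The count of lncRNA rows called higher, 127, was 81 without HFD 2 and 78 without Normal 2 and Normal 3.

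The Dlk1-Dio3 cluster was then compared along its length, since Meg3, Rian and Mirg lie within 208 kb on 1 strand. The ratio of Meg3 to Mirg was 11.7, 10.2, 11.2 and 12.4 in Normal 1 to 4 and 15.8, 16, 15.6 and 15 in HFD 1 to 4. All high fat mice were above all normal mice, by a log2 difference of 0.46. Meg3 to Rian was 0.534, 0.479, 0.511 and 0.521 against 0.607, 0.596, 0.632 and 0.549, a log2 difference of 0.22. Rian to Mirg was 21.8, 21.3, 22 and 23.8 against 25.9, 26.8, 24.7 and 27.3, a log2 difference of 0.24. The diets did not overlap in any of the 3 ratios. Each gave p = 0.0286 when all 70 divisions of the mice were enumerated (exact permutation test, two-sided), the smallest p that 4 against 4 mice allow, and 0.0286 after Benjamini-Hochberg adjustment over the 3. Leaving out Normal 1, 2, 3 or 4 gave an adjusted exact p of 0.0571 for Meg3 to Rian, as did leaving out HFD 2 or HFD 4 for Rian to Mirg. The log2 differences in these cases were 0.19 to 0.24 for Meg3 to Rian and 0.21 to 0.22 for Rian to Mirg. The diets still did not overlap, and an exact p can take few values with so few mice. Meg3 to Mirg stayed below 0.05 without each mouse. The ratios were not adjusted for marker levels.

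Rows between these genes did not form an even slope. Gm26945, a lincRNA inside the span of Rian, had 11.4, 11.1, 11 and 11.4 FPKM against 12.3, 12.5, 10.7 and 12.5 and a log2 fold change of 0.09 (limma adjusted p = 0.265). Gm37899, which starts 7152 bases after the end of Rian, had 4.3, 3.5, 4.1 and 4.2 FPKM against 5.7, 5.8, 5 and 5.8. It was called higher, with a log2 fold change of 0.46 (limma adjusted p = 0.00446), an estimate nearer to that of Meg3 than to that of Rian, which was not tested. B830012L14Rik, between Gm37899 and Mirg, had 0.9 to 1.4 FPKM against 1.5 to 1.9, near the rounding step of 0.1, with 0.41 (limma adjusted p = 0.0785). In Rian, Gm26945 and Gm37899 alike, HFD 3 was the lowest high fat mouse. Gm26945 lies within the span of Rian on the same strand, so reads of these rows may be shared. Meg3, Mirg and Miat overlap annotated genes on the other strand, and no source used here says whether the counting used strand.

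**Figure D3:**
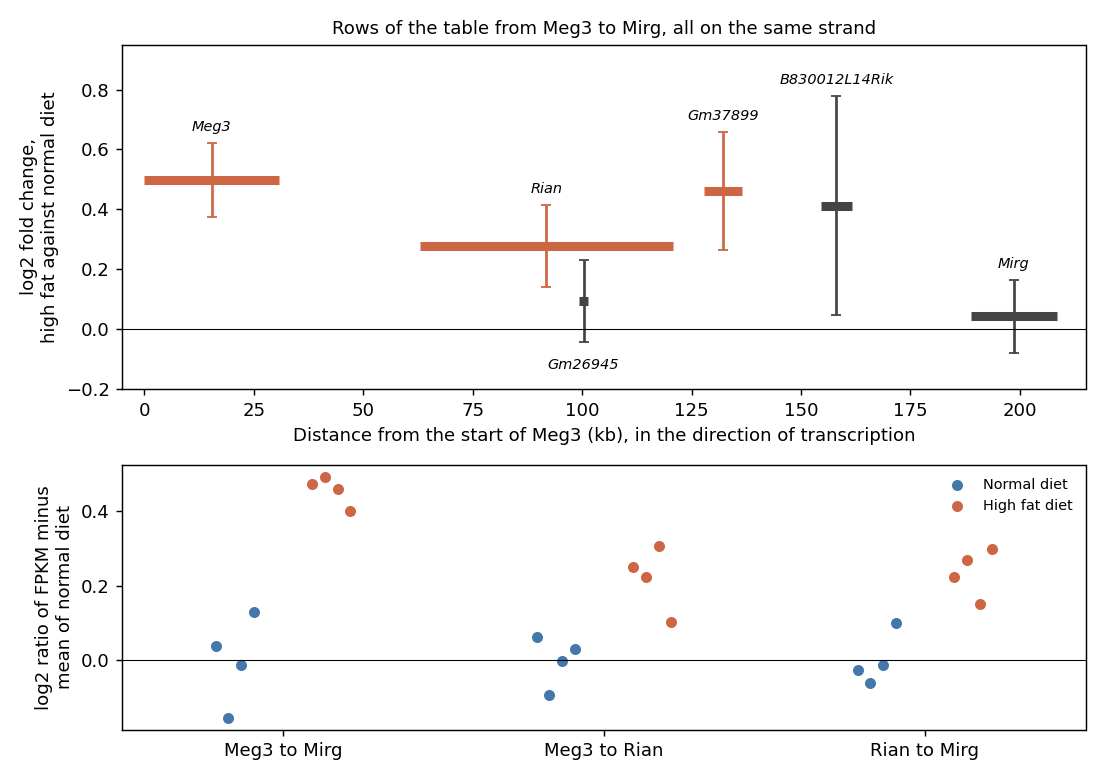
Top, log2 fold change with 95% confidence interval of the 6 rows from Meg3 to Mirg, drawn over their extent in kb from the start of Meg3 (red where called higher, dark grey where not). Bottom, log2 ratio of FPKM in each mouse after subtraction of the normal diet mean, for 3 pairs of genes, with the high fat mice above all normal mice in each pair.

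Of 10 other genes of the Dlk1-Dio3 domain and its flanks, 6 were tested, 1 was called higher and 0 lower by limma, 0 also at an unadjusted p below 0.05. Begain, a postsynaptic protein gene upstream of Dlk1, was the one called. It had 23.8 to 30.8 FPKM on the normal diet and 33.4 to 41.9 on the high fat diet, with a log2 fold change of 0.46 (limma adjusted p = 0.00712), while Ppp2r5c in the flank was not called (0.15). The paternally expressed Dlk1, Rtl1 and Dio3 were not analysed here, so the balance of the parental sides was not measured. Of 28 imprinted genes of other domains, 3 were higher and 7 lower, with a median of -0.09. Beside both lists, the shares over all genes were 17.7% higher and 15.3% lower. Ddc, which makes dopamine from its precursor, went from 2.8 to 6.9 down to 1.7 to 2.2 FPKM, a log2 fold change of -1.0. Igf2, a growth factor, went from 9.4 to 13.7 down to 6.2 to 8, a log2 fold change of -0.71. Inpp5f (-0.46) and Peg10 (-0.61) were also lower, and Airn (-0.59) and Snurf (-0.38) did not pass. The lncRNA Kcnq1ot1, transcribed across its own imprinted domain, was one of those that rose (0.35). Imprinted genes as a group thus did not move in 1 direction.

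Proteins known to bind Miat were examined by their RNA. Celf3, a neuronal splicing regulator, had 29, 22.9, 22.9 and 31 FPKM in Normal 1 to 4 and 39.7, 37.3, 38.6 and 35.4 in HFD 1 to 4. It was higher in each high fat mouse (log2 fold change 0.52, limma adjusted p = 0.00468), and Normal 2 and Normal 3 were lowest as for Miat. Sf1, which binds the branch point sequence that TACTAAC resembles, rose by 0.41 (limma adjusted p = 0.00515). Qk, an RNA-binding protein gene strong in glia, fell from 73.9 to 90.1 to 62.2 to 66.4 FPKM (-0.32, limma adjusted p = 0.00518). Srsf1 was not called (-0.09). Of the 4, 2 were therefore higher and 1 lower, while 17.7% of all genes were higher and 15.3% lower. Oligodendrocyte markers were lower in 8 of 8, and their part in the value of Qk was not tested.

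Genes of 16 paraspeckle proteins moved both ways, with 3 higher, 5 lower and a median log2 fold change of -0.07. Over all genes, 17.7% were higher and 15.3% lower. Sfpq and Nono encode partner proteins that bind Neat1. Sfpq had 36.5 to 40.3 FPKM on the normal diet and 43.5 to 47.6 on the high fat diet (0.26, limma adjusted p = 0.00368). Nono went the other way, from 50 to 51.1 down to 42.5 to 46 FPKM (-0.20, limma adjusted p = 0.0057). Rbm14, needed to assemble paraspeckles, rose by 0.36, and the chromatin remodeller gene Smarca4 rose by 0.17 with ranges that overlapped (limma adjusted p = 0.0434). Rbm3, a cold-inducible RNA-binding protein, fell by 0.31, and Tardbp, Matr3 and Hnrnpk were also lower. Taf15 (-0.24) and Hnrnph3 (-0.16) did not pass.

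Of 23 genes of nuclear speckles, the bodies beside which paraspeckles lie, 2 were higher and 3 lower, with a median of -0.00683. Among all genes, 17.7% were higher and 15.3% lower. Srrm2, a scaffold protein gene of speckles, had 41.8, 37.9, 40.6 and 43.1 FPKM in Normal 1 to 4 and 59.5, 62.3, 59.7 and 58.8 in HFD 1 to 4, a log2 fold change of 0.56 (limma adjusted p = 0.000233). Srrm1, a splicing coactivator gene, went from 9.9 to 11.1 up to 14 to 15.7 FPKM, by 0.49. Son, another scaffold protein gene of speckles, was not called (0.08, limma adjusted p = 0.135). The splicing factor genes Srsf3 (-0.26) and Srsf10 (-0.23) were lower, and so was Luc7l3 (-0.16, limma adjusted p = 0.0499). Srsf4 (0.16) and Clk1 (-0.14) did not pass.

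**Figure D4:**
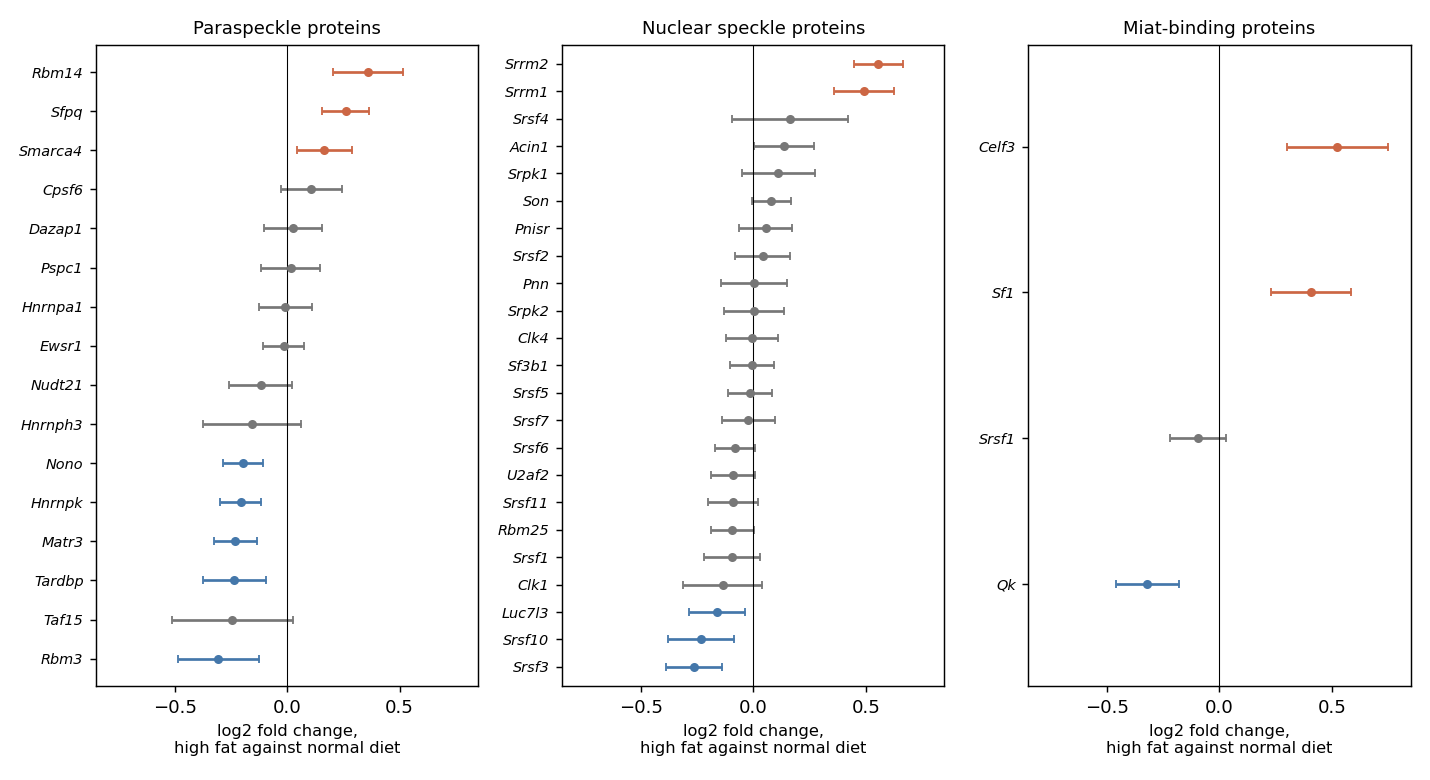
Log2 fold change with 95% confidence interval of the RNA of 16 paraspeckle, 23 nuclear speckle and 4 Miat-binding proteins (red where called higher, blue where lower, grey where not called). Genes of each group lie on both sides of 0, with Srrm2 and Celf3 at 0.56 and 0.52.

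Other snoRNA host genes were set beside Snhg11. Of 15 tested, 3 were higher and 1 lower, with a median of 0.10. By the same test 17.7% of all genes and 20.1% of the lncRNA rows were higher, and 15.3% of all genes lower. Snhg20 was at 15.6 FPKM in all 4 normal mice and at 26.2, 23.9, 32.5 and 23.6 in HFD 1 to 4, a log2 fold change of 0.75 (limma adjusted p = 0.0009). Snhg14, the long host transcript of the Snrpn domain, rose by 0.50 and Snhg12 by 0.35. Zfas1 was lower (-0.33). Snhg17 (0.39) and Snhg15 (0.32) did not pass. Of 19 rows of other named lncRNAs, 6 were higher and 0 lower by limma (1 lower at an unadjusted p below 0.05), with a median of 0.12. Among the lncRNA rows 20.1% were higher, and 34.3% among those with a mean of at least 10 FPKM. Rmrp, the RNA part of a nuclear ribonuclease, has 2 rows in the table. Its lincRNA row had the largest change of the list (0.69, limma adjusted p = 0.0397) with ranges that overlapped, while its ribozyme row, at means of 26529 FPKM on the normal diet and 25456 FPKM on the high fat diet, was not called (-0.07, limma adjusted p = 0.815). Kcnq1ot1 (0.35), Ftx (0.29) and Mir124a-1hg (0.29), the last a host gene of the neuronal miR-124, were also called. Mir9-3hg (0.24) and Dlx6os1 (-0.23) did not pass.

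Activity-dependent immediate early genes were set beside the lncRNAs because Miat and other neuronal transcripts can respond to activity. Of 11, 0 were higher (1 at an unadjusted p below 0.05) and 5 lower by limma, with a median of -0.18. The shares of all genes were 17.7% higher and 15.3% lower. Fos had 20.7 to 23 FPKM on the normal diet and 7 to 11.8 on the high fat diet, a log2 fold change of -1.24 (limma adjusted p = 0.00065). Arc went from 93.4 to 156.9 down to 54.3 to 88.9 FPKM (-0.78). Egr2 (-0.80) and Ier2 (-0.70) were lower as well, while Npas4 (0.41) and Fosb (0.35) did not pass.

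The genes whose levels followed each lncRNA most closely over the 8 mice were taken as the 3 with the smallest root mean square difference of log2(FPKM + 0.1) after centring on the mean of the mice. For Miat they were Csmd1, Shisa7 and Pde1a, at 0.034, 0.045 and 0.057, beside a spread of Miat itself of 0.38. Csmd1 had 13.7, 10.9, 10.2 and 13.9 FPKM in Normal 1 to 4 and 19.5, 20.4, 19.1 and 19.8 in HFD 1 to 4, the same split of the normal mice as in Miat. Meg3 was nearest to Tcf4 (0.051), Setbp1 (0.053) and the glutamate receptor gene Grm7 (0.054). For Snhg11 the nearest were Srrm2 (0.048), Gm340 (0.057) and Ptpn23 (0.058). Rian was nearest to Zfp369 (0.026), Dgcr6 (0.043) and Tmsb10 (0.046), with HFD 3 the lowest high fat mouse in each. Mirg, which hardly varied, was nearest to Jade1, Eef1g and Srrt at 0.031 to 0.04. Neat1 had no gene as close in this distance, with Zfpm2 at 0.086, Cntfr at 0.10 and Fancf at 0.11. All of these genes were highest in mouse 3 of both diets. The distances were not scaled by the spread of each lncRNA, which was 0.28 for Neat1 and 0.066 for Mirg. Among the 6 lncRNAs, Meg3 and Snhg11 were the closest pair (0.088), and Miat and Neat1 the farthest (0.38). These distances describe 8 mice and include the difference between diets.

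The plot of lncRNAs and markers by mouse places these patterns beside the marker genes. Miat, Snhg11, Meg3 and the sums of the cortical excitatory and the general neuron markers had their lowest values in Normal 2 and Normal 3. The neuron marker sum was 1832.2 and 1774.1 FPKM in these mice and 2048.1 and 2115.5 FPKM in Normal 1 and Normal 4. Of the neuron markers, Syt1, Snap25 and Map2 were lowest in these mice, while Stmn2, Tubb3 and Rbfox3 did not follow this order. Stmn2 had 86.2, 96, 102.5 and 91.7 FPKM in Normal 1 to 4, and Tubb3 had 217, 223.9, 216.5 and 220.4. Neat1 had the reverse order, with 15.2 and 19.3 FPKM in Normal 2 and Normal 3 against 13.7 and 12.8 in Normal 1 and Normal 4. Its highest value of each diet was in Normal 3 and HFD 3.

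**Figure D5:**
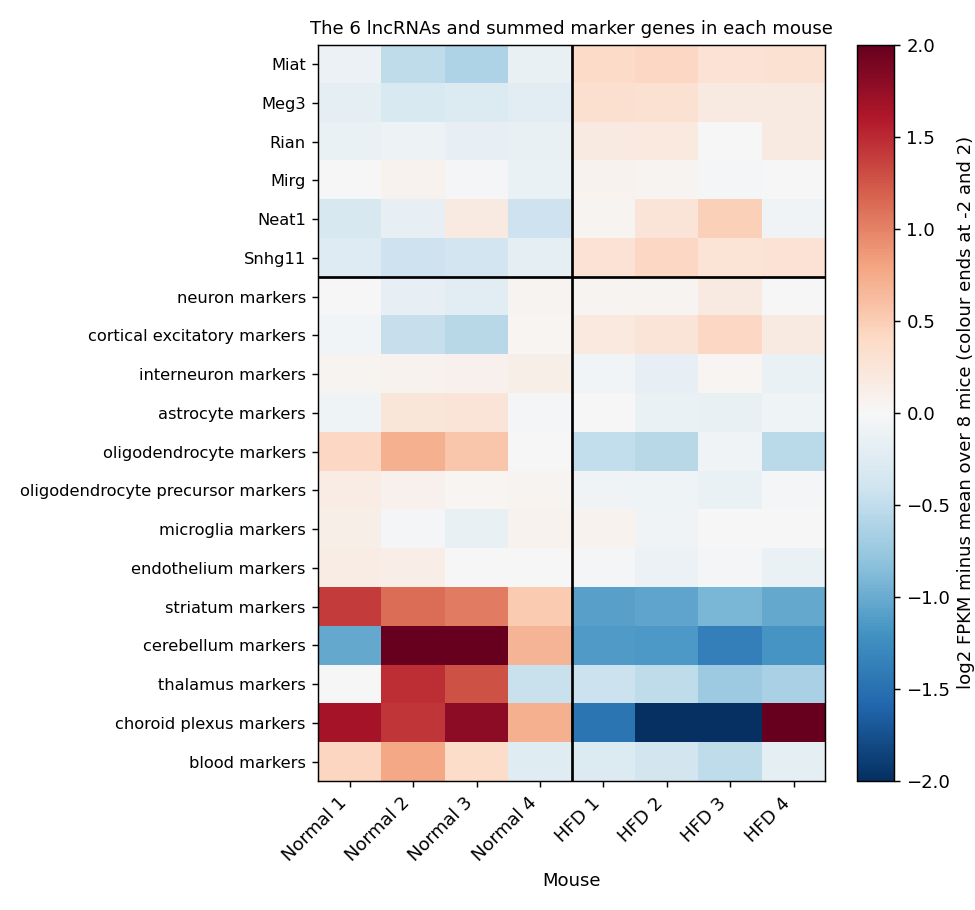
Log2 FPKM of the 6 lncRNAs and of the summed markers of 13 cell types, regions and blood in each mouse, after subtraction of the mean over 8 mice (red higher, blue lower, colours end at -2 and 2). The striatum row separates the diets, the cerebellum row is highest in Normal 2 and Normal 3, and the choroid plexus row is highest in HFD 4.

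Most rows near these genes were not called, and by the same test 17.7% of all genes were higher and 15.3% lower. Within 100 kb of Miat, 3 genes were tested and 1 was called: Tfip11, a spliceosome factor gene, with a log2 fold change of 0.15 (limma adjusted p = 0.0424). Tpst2 (-0.02) and Crybb1 (-0.05) did not pass. Around Neat1, 12 other rows lay within 100 kb and 1 was called, Cdc42ep2, which was lower (-0.52, limma adjusted p = 0.00178). Frmd8, the nearest with a gap of 4223 bases, had 4.2 to 6.1 FPKM against 3.5 to 5 (-0.36, limma adjusted p = 0.0692). Of 5 rows around Snhg11, Gm25129 inside it included, 1 was called, the lipopolysaccharide-binding protein gene Lbp, which was lower (-1.47, limma adjusted p = 0.0284) at levels of 0.3 to 2.6 FPKM. Snhg17, a snoRNA host gene at a gap of 14057 bases, was not called (0.39).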

How the data were processed

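Total RNA of 8 cortexes, depleted of ribosomal RNA, was made into stranded libraries and sequenced as pairs with 100 cycles. The authors deposited FPKM, made by trimming with Trimmomatic, alignment to mm10 with STAR and Cuffnorm on GENCODE M17 (GRCm38.p6), and no source used here gives tool versions. They are rounded to 0.1 and carry no read counts, so depth per mouse is unknown and no counting interval is given. FPKM of a gene also falls when other RNAs take more reads. A second quantification by Salmon and edgeR, which the authors ran, and circRNA counts were not used here. Malat1 was not analysed here, so its tests and the Neat1 to Malat1 ratio were not run.

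Groups were taken from the sample titles. Log2(FPKM + 0.1) was fitted with limma 3.58.1 (R 4.3.3), two-sided and with a trend of the variance over level, for the 13982 genes that have no 0 and average 1 FPKM or more. The 40% limit for lncRNAs follows the study. Ratios were tested by exact permutation. Python 3.11.15, numpy 2.4.6, pandas 2.3.3 and matplotlib 3.10.9 were used. On simulated data over these 13982 genes, limma found 56 of 100 genes changed by 1.4-fold and 88 of 100 changed by 2-fold, with 8 false calls. The simulation changed only these genes and drew noise independently per gene, while 17.7% and 15.3% of all genes were called in the data. Its rates therefore need not hold for the data. Coordinates and transcripts are from GENCODE M21, microRNAs and promoters from RefSeq (GRCm38.p6).

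Members, the 8 gene lists and 13 marker lists were chosen with earlier results of these data known. Named genes were the members, in each list up to 4 called and 2 not called by size of change, the 3 nearest profiles per member, and rows within 100 kb. Nono, Matr3, Hnrnpk, Luc7l3, Smarca4, Son and the second row of Rmrp were named after their values were seen. The paraspeckle list first held 1 more gene, which is in no count and is not reported here. Alternatives were another pseudocount, other filters and scalings, a constant prior variance, a block for replicate number, marker levels as covariates, and mice left out.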

Additional observations from a re-analysis of the deposited data

Results flagged for a closer look

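Each value of this section lay far from the other 3 mice of its diet, by a gap to the nearest that took up most of the range of the 4 (Dixon's test at the 95% level). This was checked in 134 groups of 4, in which chance flags about 1 in 20, and 12 were found, 7 of them in HFD 3.

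Rian was 626.7 FPKM in HFD 3 against 716.1 to 725 in the other high fat mice. The neighbouring Gm26945 and Gm37899 were also lowest there, at 10.7 and 5 FPKM against 12.3 to 12.5 and 5.7 to 5.8. The same mouse was lowest for Srsf1 (52.6 FPKM), Snhg12 (27.9 FPKM) and Mir9-3hg (6.7 FPKM), and highest of its diet for the summed oligodendrocyte markers, at 2019.1 FPKM against 1451.3 to 1509.7. Without HFD 3 the log2 fold change of Rian was 0.33 (limma adjusted p = 0.00437).

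Snhg11 was 162.2 FPKM in HFD 2 against 148 to 149.4 in the other high fat mice. Choroid plexus markers summed to 938.3 FPKM in HFD 4 against 20.7 to 76.2. On the normal diet, Srrm1 was 9.9 FPKM in Normal 1, Clk1 was 50.6 FPKM in Normal 2 and Igf2 was 9.4 FPKM in Normal 4. The causes were not tested.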

How the results depend on the processing

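No alternative turned the direction of a log2 fold change of the 6 lncRNAs. Miat, Meg3, Rian and Snhg11 stayed past the threshold under other pseudocounts, filters, scalings and no variance trend and without each mouse, where their log2 fold changes were 0.60 to 0.77, 0.47 to 0.52, 0.26 to 0.33 and 0.59 to 0.67. Mirg was not called in any fit (0.00546 to 0.07 without each mouse, 0.47 with the striatum covariate). Neat1 ranged from 0.25 to 0.47 without each mouse, was 0.67 with the cerebellum covariate and 0.50 with the striatum covariate, not called in either, and passed without Normal 3 (0.47), without Normal 2 and Normal 3 (0.54) and with the replicate block (0.35, limma adjusted p = 0.0103).

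With the cerebellum covariate Miat (0.27) and Rian (0.28) were no longer called, and 2 lncRNAs were called, 1 of them over 1.4-fold; over the lists 6 genes were higher and 5 lower, and 14 lncRNA rows were higher, against 19, 22 and 127. With the striatum covariate, which hardly differs from the diet, Miat (0.61), Meg3 (0.56), Rian (0.35) and Snhg11 (0.31) were not called by limma, and all these counts were 0. The lncRNA rows called higher numbered 41 with a mean FPKM of at least 5, where fewer genes are tested, 78 without Normal 2 and Normal 3, and 81 to 138 without each mouse. Without each mouse, 4 to 5 of the lncRNAs were called, 2 to 3 of them over 1.4-fold, and the lists gave 14 to 19 higher and 18 to 23 lower.

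No source used here says whether same-numbered mice of the diets are paired. Their deviations from the diet means correlated across genes at -0.04, -0.03, -0.11 and -0.07, which cannot settle it. The replicate block called 5 lncRNAs, Neat1 in addition. For the ratios, pairing by number gave log2 differences of 0.46 (Meg3 to Mirg), 0.22 (Meg3 to Rian) and 0.24 (Rian to Mirg) with p = 0.125 in an exact sign-flip test, the smallest that 4 pairs allow. Without each mouse the ratios differed by 0.40 to 0.50, 0.19 to 0.26 and 0.21 to 0.27. The fits for Malat1 were not run. Depth is unknown, and rounding to 0.1 limits rows near 1 FPKM.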
